A study of Bos taurus with 8 samples.

Results

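The genes described here are 10 genes of serine and asparagine synthesis and of the ATF4 stress response: PHGDH, PSAT1, PSPH, SHMT2, ASNS, ATF4, DDIT3, TRIB3, CHAC1 and SESN2. They were taken by symbol from the platform annotation of a bovine array, on which all 10 were found. They make up 10 of its 15229 gene symbols and 18 of its 43795 probes.

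Expanded bovine blastocysts produced in vitro were set against expanded blastocysts recovered from the uterus (in vivo), with 4 biological replicates of each kind. For the in vitro embryos, the treatment text describes slaughterhouse ovaries, oocyte complexes drawn from follicles of 2 to 6 mm, maturation, fertilization and culture, with collection at 168 h after fertilization. The source name instead calls these embryos OPU embryos, and the labels do not settle which applies. For the in vivo embryos, Holstein females had follicles above 8 mm removed on day 8 to 12 of the cycle, and 36 h later began 8 falling doses of FSH, from 60 to 20 mg and 400 mg in all. They also received 500 µg of a prostaglandin analogue with each of the last 2 doses and were inseminated at 12 and 24 h after oestrus. Collection is given as day 7 in the sample labels and as 7.5 days in the treatment text. Semen from one pool served both kinds of embryo. Stimulated donors and the uterus go with the in vivo embryos alone, so their part cannot be told apart from in vivo origin. The number of embryos, dams or cultures in a replicate is not given, and p-values measure the spread between these samples only.

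RNA of an in vitro and an in vivo replicate was hybridised together on a 2-colour array, once in each dye orientation, giving 8 arrays on 2 slides: in vitro in Cy5 on slide 58 and in vivo in Cy5 on slide 61. All ratios are log2 in vitro over in vivo, so a positive value is higher in vitro, and each replicate's ratio is the mean of its 2 arrays. Means are given ± SE from limma over 4 replicates, and a gene was called where its Benjamini-Hochberg adjusted p over 10188 tested genes was under 0.05. Levels are normalized log2 intensities, comparable between the embryos for a probe but not between probes. A probe was detected on an array where it exceeded the 95th percentile of 153 negative control spots, which lay at log2 levels of 6.63 to 6.80 in vitro and 6.57 to 6.80 in vivo. Between 63.7 and 76.4% of all probes per array were detected in vitro and between 60.4 and 83.0% in vivo. Replicate 2 stood apart over all tested probes, with correlations of 0.386 to 0.459 with the others, which correlated at 0.804 to 0.822 among themselves.

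Serine is made from the glycolytic intermediate 3-phosphoglycerate by PHGDH, PSAT1 and PSPH in turn, and serine hydroxymethyltransferases such as SHMT2 then pass its carbon to folate for nucleotide synthesis and methylation. Asparagine is made from aspartate by ASNS. In mammalian cells these genes are known targets of ATF4, a basic leucine zipper (bZIP) factor whose own output is set largely by translation: when a stress kinase phosphorylates the initiation factor eIF2, most translation slows while ATF4 mRNA is read more. Under lasting stress ATF4 also induces DDIT3, TRIB3, CHAC1 and SESN2. Arrays measure mRNA, so ATF4 translation itself was not measured. The samples are whole embryos, in which fewer cells of a type and less RNA per cell cannot be told apart.

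Of the 10 genes, PSPH and ASNS were called higher in vitro and none was called lower. PSPH was 3.83-fold and ASNS 2.03-fold higher on average, and PSAT1 had the next largest ratio without passing the test. ATF4 itself and its stress targets DDIT3, TRIB3, CHAC1 and SESN2 were not called in either direction. At an unadjusted p under 0.05 the counts were 3 higher and 1 lower, beside 1532 higher and 2085 lower of all 10188 tested genes. Among all tested genes 21.8% were called, 9.23% higher and 12.6% lower, so the share of 2 in 10 called here was near that of the whole array. The median ratio of the 10 genes was 0.19, with 6 above and 4 below 0, beside -0.01 for all tested genes. The levels of the embryos did not overlap for PSPH and PSAT1, beside 23.1% of all tested genes.

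**Figure D1:**
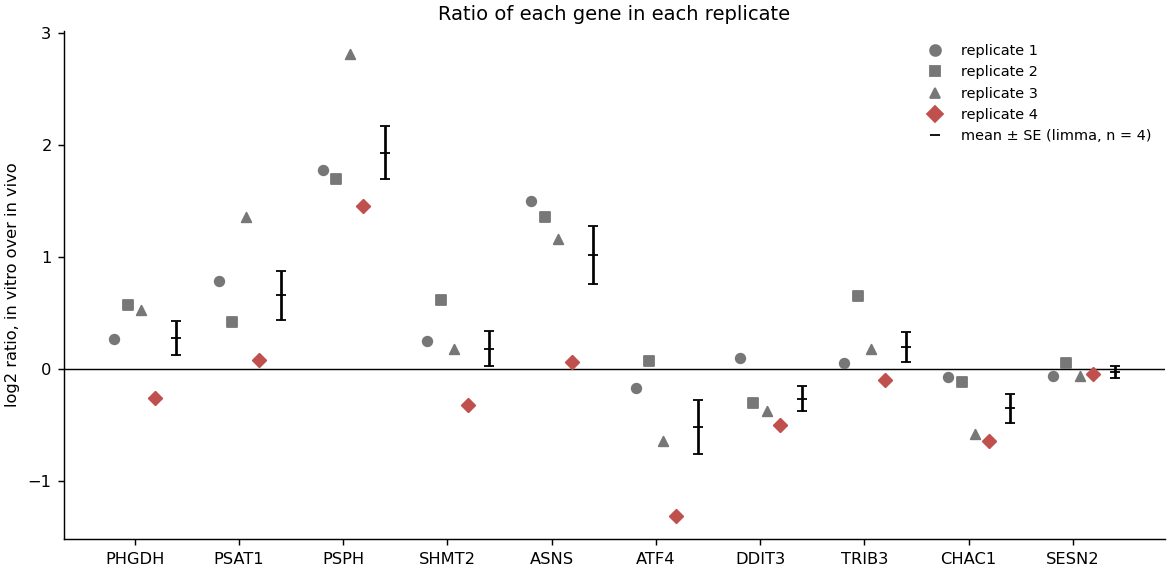
Log2 ratio, in vitro over in vivo, of each gene in replicates 1 to 4 (points, each the mean of 2 arrays) with the limma mean ± SE (bars, n = 4). PSPH was above 1 in every replicate, whereas replicate 4 (red diamonds) had the lowest ratio for every gene except SESN2.

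PSPH, the phosphatase that completes serine synthesis, showed the largest difference. Its levels were 9.31, 8.74, 9.88 and 9.08 in vitro in replicates 1 to 4, against 7.53, 7.04, 7.06 and 7.63 in vivo. Every in vitro value lay above every in vivo value. The ratios were 1.78, 1.70, 2.81 and 1.45, with a mean of 1.94 ± 0.24 (95% interval 1.32 to 2.55) and an adjusted p of 0.00857. PSPH was higher in vitro on 8 of 8 arrays, and 22.8% of all tested genes likewise kept 1 direction on every array. Raw intensities were 471 to 979 in vitro and 150 to 303 in vivo, and the probe was detected in both kinds on all arrays. The in vivo levels stood close to the negative controls, so the fold may be understated. A second PSPH probe was detected on 1 of 8 arrays in vitro and 3 of 8 in vivo and was not tested, so the PSPH result rests on 1 probe.

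PSAT1, the aminotransferase of the middle step, had levels of 13.46, 12.83, 13.51 and 12.81 in vitro, against 12.67, 12.41, 12.14 and 12.73 in vivo. The lowest in vitro value lay just above the highest in vivo value. Its ratios of 0.79, 0.42, 1.36 and 0.08 were all above 0, but their spread was wide for 4 replicates. The mean of 0.66 ± 0.22 (95% interval 0.10 to 1.22) had an adjusted p of 0.0956 and was not called. With the 8 arrays entered singly, the replicate number as a block and a dye term, the same ratio had an adjusted p of 0.0135 and was called. PSAT1 was also called, at 0.77 with an adjusted p of 0.0412, on slide 58 taken alone.

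PHGDH, the dehydrogenase that commits 3-phosphoglycerate to serine, was measured near background. Its levels were 7.33, 7.45, 7.63 and 6.93 in vitro, against 7.06, 6.87, 7.10 and 7.18 in vivo. The groups overlapped, and in replicate 4 the in vivo level was the higher. The mean ratio was 0.28 ± 0.16 (adjusted p = 0.278), with a 95% interval of -0.12 to 0.68. The interval holds neither a doubling nor a halving, which lie at 1 and -1 on this scale, but ratios of probes this close to the negative controls may be understated.

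SHMT2, the mitochondrial enzyme that converts serine to glycine, had levels of 10.35, 10.24, 10.42 and 9.94 in vitro, against 10.09, 9.61, 10.24 and 10.26 in vivo. Replicates 1 to 3 were higher in vitro and replicate 4 was lower. The mean ratio was 0.18 ± 0.16 (adjusted p = 0.488). The array carries 4 SHMT2 probes. The other 3 lay at mean levels of 6.71 to 6.93 in vitro and 6.64 to 6.93 in vivo, close to the negative controls, and the 1 of them that was tested had a ratio of 0.0027 and was not called. The slides gave ratios of -0.10 (slide 58) and 0.47 (slide 61) for the bright probe.

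**Figure D2:**
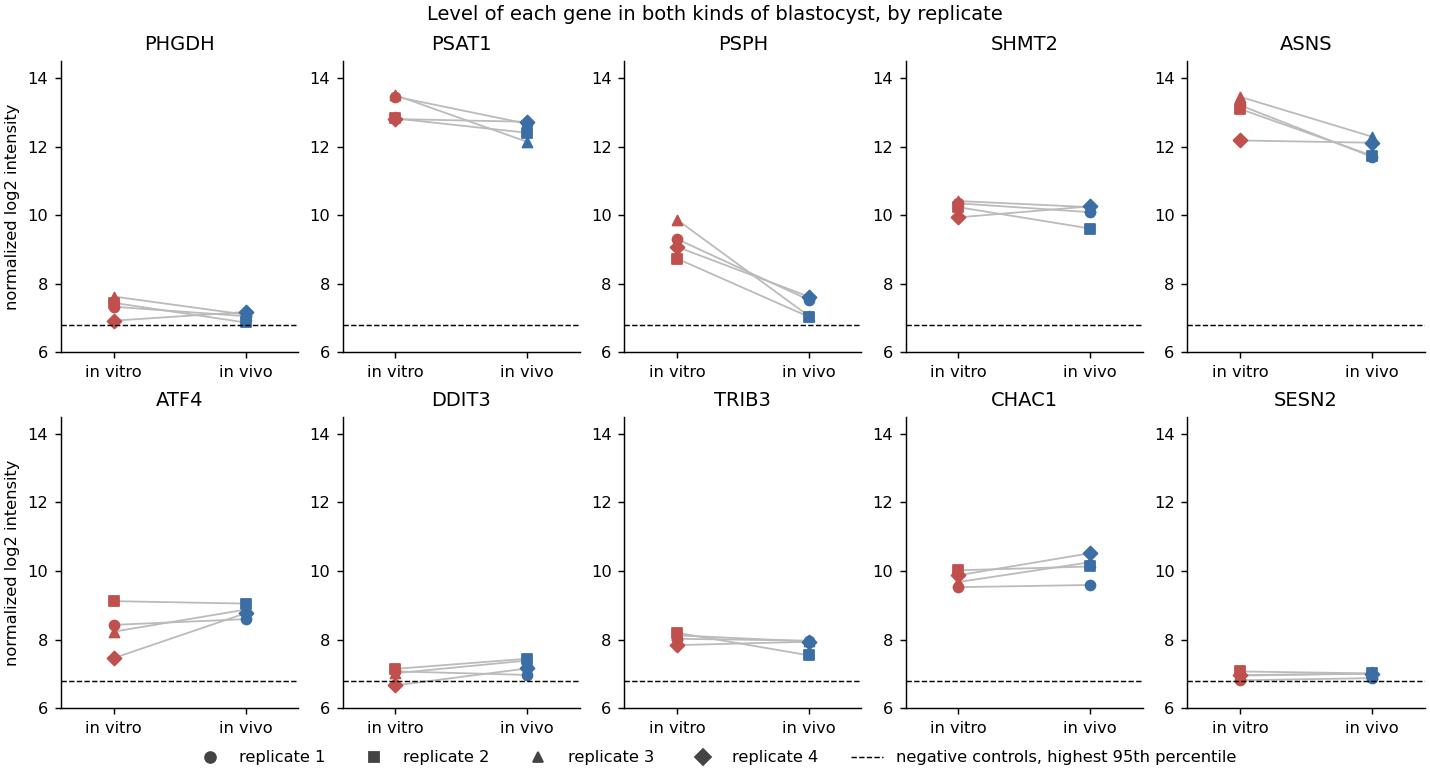
Normalized log2 intensity of each gene's brightest tested probe, in vitro (red, left) and in vivo (blue, right), with lines joining the samples hybridised together and a dashed line at the highest 95th percentile of the negative controls. PSPH and PSAT1 are the panels in which the embryos do not overlap, and PHGDH, DDIT3 and SESN2 lie close to the dashed line; heights are not comparable between panels, since probes differ in brightness.

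ASNS, which makes asparagine from aspartate and glutamine, was the other gene called higher. Its levels were 13.21, 13.10, 13.46 and 12.18 in vitro, against 11.71, 11.74, 12.30 and 12.12 in vivo. The in vitro samples of replicates 1 to 3 lay above every in vivo sample, while that of replicate 4 lay within the in vivo range. The ratios were 1.50, 1.36, 1.16 and 0.07, with a mean of 1.02 ± 0.26 (95% interval 0.36 to 1.69) and an adjusted p of 0.0491. ASNS was higher in vitro on 7 of 8 arrays. The call stood just inside the threshold: over all 24775 tested probes, of which 15.8% were called, the same probe had an adjusted p of 0.0596. Without replicate 4 the ratio was 1.34 (adjusted p = 0.0393), and without replicates 1, 2 or 3 it was 0.86, 0.91 and 0.98 and was not called. A second ASNS probe was detected on no array. The ratio was 0.58 on slide 58 and 1.47 on slide 61, and 4.35% of all tested genes had a larger difference between slides.

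ATF4 had the lowest mean ratio of the 10 genes, at -0.51 ± 0.24 (95% interval -1.13 to 0.11, adjusted p = 0.207), and was not called. Its levels were 8.43, 9.12, 8.23 and 7.46 in vitro, against 8.60, 9.05, 8.87 and 8.77 in vivo. The in vivo samples lay close together (SD 0.19) and the in vitro samples were spread more widely (SD 0.68). Replicate 4 was the lowest in vitro, with a ratio of -1.31, and replicate 2 was near parity at 0.07. Leaving out each replicate in turn gave -0.71 to -0.25, never called. Both dye orientations gave similar values, at -0.55 on slide 58 and -0.47 on slide 61.

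DDIT3, also called CHOP, is a bZIP partner of ATF4 that is known for its part in death under prolonged endoplasmic reticulum stress. Its brightest probe read 7.07, 7.15, 7.02 and 6.66 in vitro, against 6.97, 7.44, 7.39 and 7.16 in vivo, all within 1 unit of the negative controls. The groups overlapped, and the mean ratio was -0.26 ± 0.11 (adjusted p = 0.170). A second tested DDIT3 probe, at 0.016, was not called, and the remaining one was not tested. DDIT3 was thus near the negative controls in both kinds of blastocyst, where a ratio may be understated.

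TRIB3, a pseudokinase that ATF4 induces and that in turn restrains it, had levels of 8.02, 8.20, 8.12 and 7.84 in vitro, against 7.97, 7.54, 7.94 and 7.94 in vivo. Apart from replicate 2, with a ratio of 0.66, its values differed little between the embryos. The mean ratio was 0.20 ± 0.14 (adjusted p = 0.383).

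CHAC1, an enzyme that breaks down glutathione and is induced late in the ATF4 response, read 9.53, 10.02, 9.68 and 9.88 in vitro, against 9.59, 10.13, 10.26 and 10.52 in vivo. The in vitro sample was the lower of each pair, with ratios of -0.06, -0.11, -0.58 and -0.64 and a mean of -0.35 ± 0.13 (95% interval -0.68 to -0.02, unadjusted p = 0.0412, adjusted p = 0.122), which was not called. Each of these ratios averages 1 array of each dye orientation, so a dye effect of equal size on both cancels in them. With the 8 arrays entered singly, the replicate number as a block and a dye term, the same mean had an adjusted p of 0.5655. The orientations taken singly read in opposite directions. On slide 58, with in vitro in Cy5, the ratio was -1.29 and below 0 on all 4 arrays. On slide 61, with in vivo in Cy5, it was 0.59 and above 0 on all 4 arrays, so the sample in Cy3 read higher on each of the 8. Each slide alone was called, at adjusted p-values of 0.0153 and 0.0111 and with opposite signs. Only 0.599% of all tested genes had a larger difference between slides, and 11.2% were opposite by slide on all arrays.

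SESN2, a leucine-binding restraint on mTORC1 that ATF4 induces, read 6.81, 7.07, 6.95 and 6.97 in vitro, against 6.87, 7.01, 7.01 and 7.01 in vivo. All 8 values lay close to the negative controls, and the mean ratio was -0.03 ± 0.06 (adjusted p = 0.808). The second SESN2 probe was detected on 0 of 8 arrays in vitro and 3 of 8 in vivo and was not tested. No change in SESN2 was detectable at this signal.

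**Figure D3:**
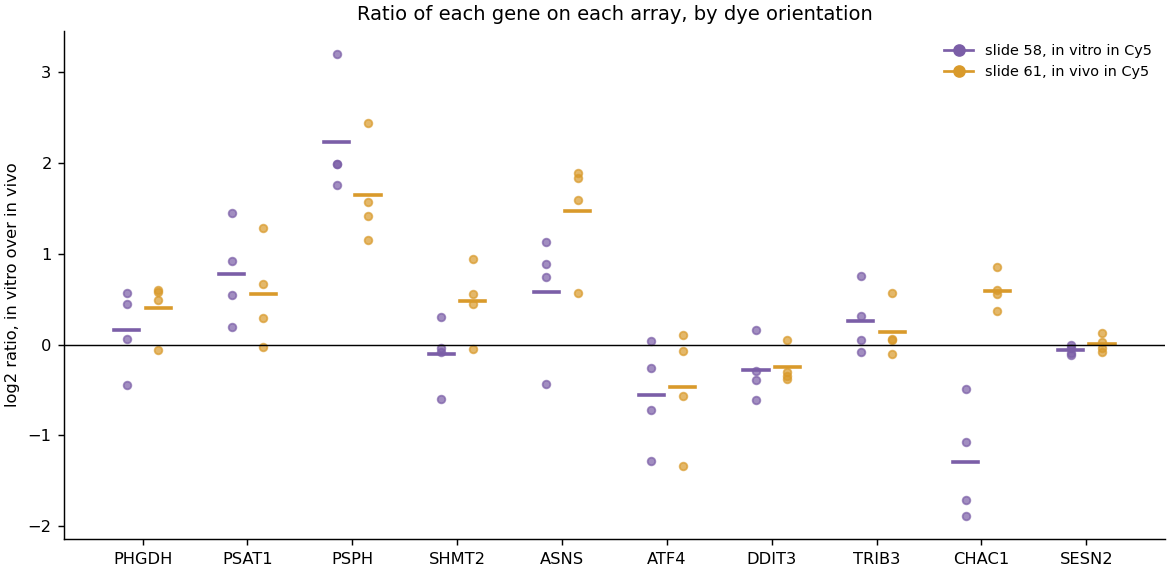
Log2 ratio, in vitro over in vivo, of each gene on each of the 8 arrays (points) with the mean of 4 arrays per slide (bars), slide 58 with in vitro in Cy5 and slide 61 with in vivo in Cy5. PSPH is above 0 on every array, and CHAC1 is below 0 on slide 58 and above 0 on slide 61.

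Replicate 4 had the lowest ratio for 9 of the 10 genes, SESN2 being the exception, whereas 18.3% of all tested genes were lowest there. The median ratio of the 10 genes was 0.18, 0.50, 0.18 and -0.18 in replicates 1 to 4, while that of all tested genes lay between -0.02 and -0.01. In replicate 4 the in vitro level was the lowest of the 4 for 7 of the 10 genes (23.5% of all tested genes), and the in vivo level was the highest for 5 of 10 (20.7%). This was noticed in the data, and no test was made of it. In the wider lists the count was 3 of 19 genes of serine, glycine and one-carbon use, 3 of 10 of asparagine to proline metabolism, 6 of 12 of the eIF2 pathway and 1 of 7 bZIP genes. It was 3 of 7 transporters, 5 of 11 tRNA synthetases and 4 of 13 genes in the list of other ATF4 targets and relatives.

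The neighbouring pathways were followed in lists chosen by known function. Their counts stand beside 9.23% of all tested genes called higher and 12.6% called lower. In serine, glycine and one-carbon use, 4 of 19 tested genes were higher in vitro and 2 lower, with a median of -0.003. GLDC and DLD, both subunits of the glycine cleavage system that splits glycine to feed folate, were higher by 1.40 ± 0.11 and 1.13 ± 0.09 (adjusted p = 0.00502 each). DLD also serves pyruvate and other 2-oxoacid dehydrogenases. ALDH1L2, a mitochondrial enzyme that oxidises formyl-folate, fell by 1.55 on the log2 scale, and PTDSS1, which builds phosphatidylserine from serine, fell by 1.12. Outside the naming rule, the 2 other called genes were GCSH, the hydrogen carrier of glycine cleavage, at 0.68 ± 0.12 with all 3 of its probes called higher, and SPTLC2, of sphingolipid synthesis from serine, at 0.55. AMT, the aminomethyltransferase of the same glycine cleavage system, was at -0.36 and was not called (adjusted p = 0.0993). MTHFD2, a mitochondrial folate enzyme and well-known ATF4 target, was at 0.19 and was not called.

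In asparagine, aspartate, glutamine and proline metabolism, 2 of 10 tested genes were higher and 2 lower, with a median of 0.18. GOT2, the mitochondrial transaminase that makes the aspartate ASNS uses, was at 1.14 ± 0.12 (adjusted p = 0.00641). ASRGL1, which cleaves asparagine and isoaspartyl peptides, was at 0.83 ± 0.09. Both were higher on 8 of 8 arrays. GLUL, glutamine synthetase, fell by 0.81, and ALDH18A1, of the first step to proline, fell by 0.39. PYCR1, of the last step to proline, read 1.16, 2.14, 1.39 and 0.05 and was not called at 1.19 ± 0.34 (adjusted p = 0.0672).

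Among the eIF2 kinases, eIF2B subunits and the eIF2 phosphatase, 3 of 12 tested genes were higher and 1 lower, with a median of 0.02. EIF2S2 and EIF2S1, the beta and alpha subunits of eIF2, were at 1.16 ± 0.11 and 0.30 ± 0.06. EIF2AK4, the amino acid sensing kinase GCN2, was at 0.49 ± 0.07 (adjusted p = 0.0111), with ratios of 0.47, 0.65, 0.49 and 0.36. EIF2B2, a subunit of the exchange factor that recharges eIF2, fell by 0.49, as did another of its 3 probes at a log2 ratio of -0.38, while the remaining one was not called. The arrays do not measure eIF2 phosphorylation.

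Of the bZIP partners and relatives of ATF4, 2 of 7 tested genes were higher and 2 lower, with a median of 0.06. NFE2L2, the antioxidant regulator NRF2, was at 0.88 ± 0.11, and CEBPG, a known dimer partner of ATF4 at amino acid genes, was at 0.77 ± 0.13. ATF2 fell by 0.71 and CEBPD by 0.54. Other probes of ATF2 and CEBPD were not called, and the CEBPD probe itself was not called over all probes (adjusted p = 0.0515). The calls in this list thus went in both directions, as did those of the whole array (9.23% higher and 12.6% lower).

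Among amino acid transporters of the ATF4 response, 1 of 7 tested genes was higher and none was lower. At an unadjusted p under 0.05 the counts were 2 higher and 2 lower, beside 1532 and 2085 of all 10188 tested genes. The gene called was SLC1A4, a carrier of serine, alanine and other small neutral amino acids, at 1.67 ± 0.35 (adjusted p = 0.0318). Its ratios were 1.62, 2.71, 1.81 and 0.52, again with replicate 4 the lowest. A dimmer tested SLC1A4 probe was at 0.50 and was not called. SLC7A5, the large neutral amino acid carrier, was at -0.72 ± 0.25 and was not called (adjusted p = 0.112). In the other direction, SLC38A2 was at 0.66 ± 0.19 and was not called (adjusted p = 0.0657), nor was its other tested probe, at 0.16.

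Among the aminoacyl-tRNA synthetases that ATF4 is known to induce, 0 of 11 tested genes were called higher and 3 were lower, with a median of -0.22. At an unadjusted p under 0.05 the counts were 1 higher and 5 lower, beside 1532 and 2085 of all 10188 tested genes. YARS fell by 0.84, CARS by 0.46 and AARS by 0.32, which charge tyrosine, cysteine and alanine. CARS, at levels of 7.08 in vitro and 7.54 in vivo, and AARS, at 6.96 and 7.29, lay near the negative controls. The other AARS probe, at -0.07, was not tested. The YARS probe was not called over all probes (adjusted p = 0.0537). SARS and NARS, which charge serine and asparagine, were at -0.80 ± 0.21 (adjusted p = 0.0530) and -0.13 ± 0.07 and were not called. The array has 2 further tested NARS probes, both below 0: over all probes, that at -0.44 was called lower (adjusted p = 0.0235) and that at -0.31 was not called.

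The list of other stress-induced ATF4 targets also holds relatives of such targets, namely TRIB1, TRIB2, SESN1 and SESN3. Of its 13 tested genes, 2 were higher and 4 lower, with a median of -0.12. MAP1LC3B, the autophagosome marker LC3B, was at 0.96 ± 0.08 (adjusted p = 0.00502), although a second probe at 0.32 was not called. PCK2, mitochondrial phosphoenolpyruvate carboxykinase, fell by 0.61, TRIB2, a relative of TRIB3, by 0.56, and XPOT, the tRNA exporter, by 0.51. Another tested TRIB2 probe, at -0.03, was not called. Outside the naming rule, DDIT4 was the other gene higher, at 0.47, and HERPUD1 the other gene lower, at -0.45. The DDIT4 ratio was 0.87 on slide 58 and 0.07 on slide 61, with 6 of 8 arrays in the same direction. In the 7 lists, known ATF4 targets thus included genes called in each direction, as did the whole array.

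**Figure D4:**
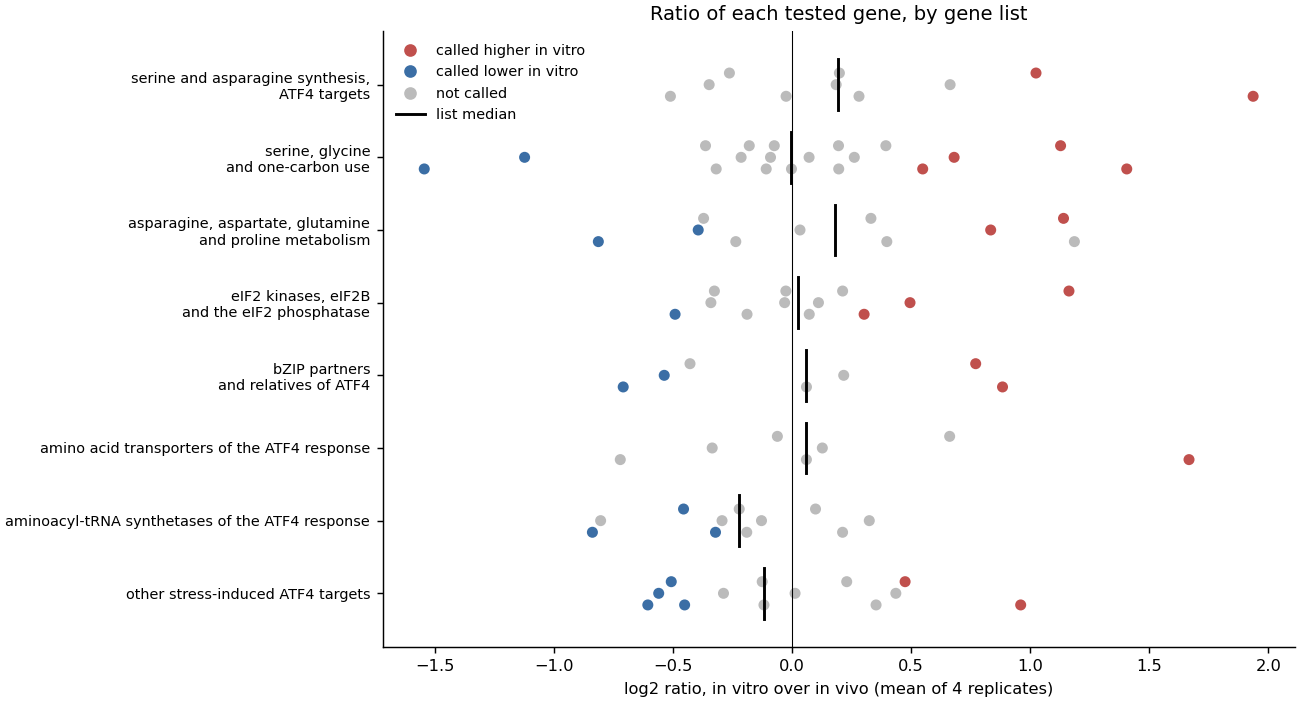
Mean log2 ratio, in vitro over in vivo, of each tested gene (points) in the 10 genes described and in 7 lists of neighbouring pathways, coloured by call at an adjusted p under 0.05, with the median of each list as a bar. PSPH lies farthest to the right at 1.94 and ALDH1L2 farthest to the left at -1.55, and the list medians lie between -0.22 and 0.19.

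The genes whose 4 replicate ratios lay nearest those of PSPH among 10187 other genes, by Euclidean distance, were ABCB1 (distance 0.510), TEX12 (0.647) and TCEAL8 (0.740). All 3 were called higher, at 1.90, 1.92 and 1.98. Nearest to ASNS were FILIP1L (0.624), NRIP3 (0.687) and LOC786987 (0.699), at 1.01, 0.74 and 1.10, of which NRIP3 was not called (adjusted p = 0.0643). A distance over 4 values describes these replicates only.

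Markers of the blastocyst and of cells that could be carried along differed between the embryos in part. Of 11 blastocyst genes on the array 10 were tested, SOX17 not being detected widely enough, and NANOG (-1.77) and KRT18 (-1.46) were called lower. The median of the 10 was -0.38. At an unadjusted p under 0.05, 1 was higher and 6 lower, beside 1532 and 2085 of all 10188 tested genes. KRT8 was at -1.01 and was not called, and its ratio was -0.13 on slide 58 and -1.89 on slide 61. Outside the naming rule, TFAP2C was called higher at 0.67, while its other tested probes, at 0.39 and 0.43, were not called. The log2 of the summed level of the 11 genes, SOX17 included, ran from 15.7 to 16.3 in vitro and from 16.4 to 16.6 in vivo. Of the 8 cumulus cell genes 7 were tested and none was called (unadjusted p under 0.05: 0 higher, 2 lower), with sums of 10.8 to 11.4 in vitro and 11.6 to 12.3 in vivo. PTGS2, which trophoblast is also known to express, had the largest ratio of them, at -1.09 (adjusted p = 0.0816). Of the 8 sperm genes 2 were tested and TNP1 was called lower at -1.63, with sums of 9.79 to 9.91 in vitro and 10.2 to 10.4 in vivo.

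No gene was called among 5 of 8 oocyte genes tested (unadjusted: 1 higher, 0 lower) or among 5 of 6 blood genes tested (0 higher, 1 lower). The oocyte sums were 9.92 to 10.1 in vitro and 9.91 to 9.98 in vivo, and the blood sums 9.67 to 10.2 in vitro and 9.87 to 10.2 in vivo. Of the 7 oviduct and uterus genes 3 were tested and MUC1 was lower at -0.45, with sums of 9.58 to 9.74 in vitro and 9.67 to 9.97 in vivo. MUC1 lay near the negative controls, at levels of 7.10 in vitro and 7.55 in vivo. It was detected on 7 of 8 arrays in vitro and 8 of 8 in vivo. GDF9 of the oocyte list and MSLN and ESR1 of the oviduct and uterus list were detected on no array in either kind. Each sum took in every list gene on the array, also untested ones near the negative controls. The blastocyst, cumulus and sperm sums were thus lower in vitro without overlap. The ranges of each list overlapped once its brightest gene was left out, a check chosen after seeing the data. Without KRT8 the blastocyst sums were 15.22 to 15.60 in vitro and 15.54 to 16.01 in vivo, overlapping only at their edges. The brightest gene left was then TFAP2C, called higher, at levels of 14.86 in vitro and 14.19 in vivo. The blastocyst gap was thus not shown to come from KRT8 alone. Without PTGS2 the cumulus sums were 9.84 to 10.1 in vitro and 10.03 to 10.23 in vivo. Without TNP1 the sperm sums were 9.53 to 9.61 in vitro and 9.51 to 9.57 in vivo, so all 3 then overlapped. Of the 8 sperm genes, 2 were detected on all arrays in each kind, TNP1 included. The sperm sums without TNP1 were thus mostly background, and their overlap cannot show whether sperm RNA differed. Leaving out PTPRC had the opposite effect on the blood sums, which were then 9.24 to 9.41 in vitro and 9.42 to 9.75 in vivo. The part of cell makeup in the PSPH and ASNS ratios was not tested.

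**Figure D5:**
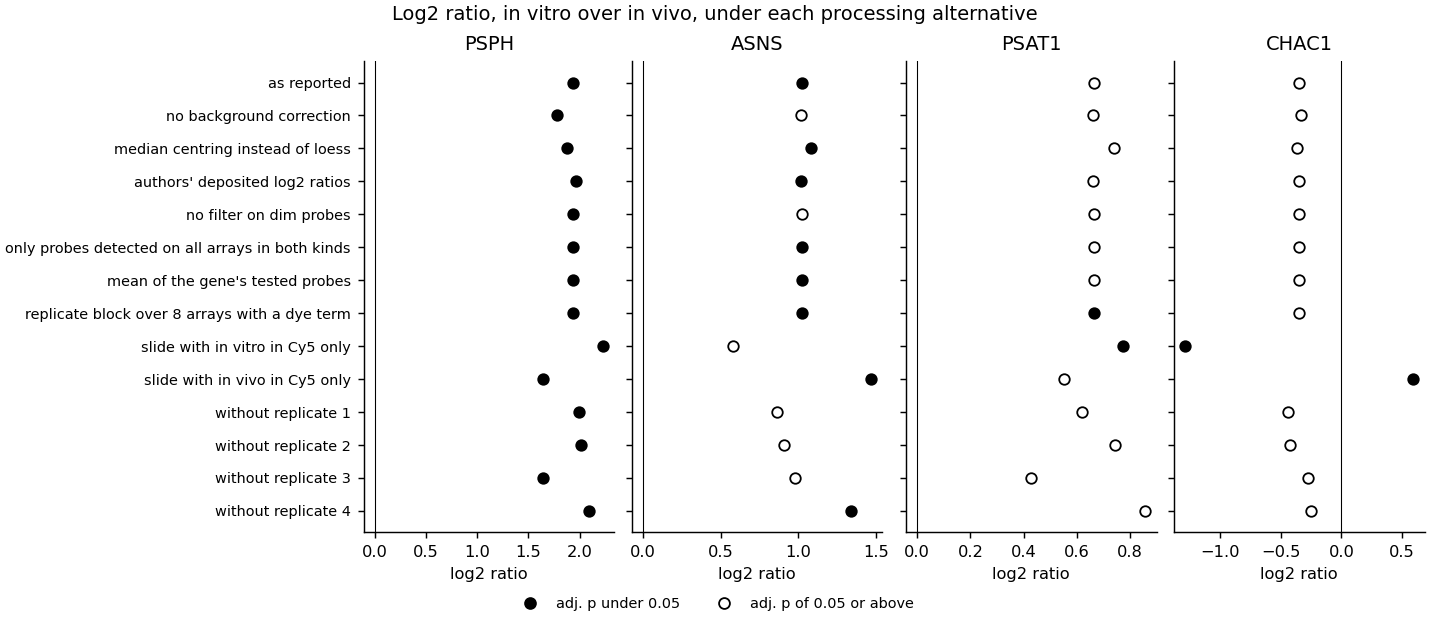
Log2 ratio, in vitro over in vivo, of PSPH, ASNS, PSAT1 and CHAC1 as reported (top line) and under 13 processing alternatives, filled where the limma adjusted p was under 0.05. PSPH is filled throughout, between 1.64 and 2.23, ASNS is filled under 7 of the 13, and CHAC1 changes sign between the slides.

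The difference in PSPH held under each of the 13 alternatives tried, at 1.64 to 2.23 with adjusted p-values of 9.92e-05 to 0.0452. ASNS kept its direction under all 13, at 0.58 to 1.47, and its call under 7. The authors' deposited table of processed log2 ratios, tested in the same way, gave 1.96 for PSPH and 1.02 for ASNS, both called. PSAT1 and CHAC1 were each called under 2 of the 13, CHAC1 with opposite signs. PHGDH, SHMT2, ATF4, DDIT3, TRIB3 and SESN2 were called under none of the 13.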

How the data were processed

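The authors deposited 1 scanner table per array with the raw mean spot intensity and the median local background intensity in Cy5 and Cy3, per the file headers, and a table of processed log2 ratios (normalization not given in the sources used here). RNA was extracted with PicoPure, amplified with RiboAmp HS Plus and labelled by ULS, per the labels' protocols. The deposited log2 ratios, with column medians of -0.00385 to 0.00131, followed log2 Cy5 over Cy3 of 5203 bright probes at r of 0.972 to 0.978 on slide 58 and -0.994 to -0.990 on slide 61. Every deposited column was thus already turned to in vitro over in vivo, with a scale close to that of the scanner values (slopes 0.953 to 0.970 and -1.01 to -0.987).

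Here, intensities were background corrected by normexp (offset 50) and loess normalized within arrays, giving 1425 control spots no weight, with limma 3.58.1 (R 4.3.3). Levels were scaled between arrays by Aquantile on the mean of both channels. Testing covered the 24775 probes (56.6%) detected on every array for the in vitro embryos, the in vivo embryos or both, with lmFit on the intercept over 4 replicates and eBayes, two-sided. Where a gene had several tested probes, the brightest stood for it. Figures used Python 3.11.15 and matplotlib 3.10.9.

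Same-numbered arrays deviated together (r of 0.703, 0.894, 0.868 and 0.779, against at most 0.149 between numbers), so the 2 arrays of a number are 1 replicate. Each slide holds 1 dye orientation. The precision of each mean rests on these 4 replicates.

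Symbols come from the platform annotation, which can be old: 21790 probes have 1 symbol, 22005 have none, and 14114 of 15229 symbols are current in RefSeq's ARS-UCD2.0 annotation. The files name no genome build, so no coordinates are given. The genes described and the lists were chosen with earlier results of these data known. Named are all 10 genes, of each pathway list up to 4 called genes with the largest change (all, if 5 or fewer), and the 3 nearest genes to each called gene. Of each marker list the undetected genes are named. Up to 3 detected ones with the largest change are also named, except in the blood and oocyte lists. Other list genes are named after their values were seen. Alternatives changed the background correction, normalization, probe filter, probe choice, replicate block, slide and replicates.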

Additional observations from a re-analysis of the deposited data

Results flagged for a closer look

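Of the 18 probes, 4 had ratios of opposite sign on the slides, on every array of each, and these differences were not tested. For CHAC1, slide 58 minus slide 61 was -1.88 on the log2 scale. For SHMT2 probe 2, near background, it was -0.11. For the undetected or barely detected second probes of ASNS and PSPH it was 0.25 and -0.27. For each of these probes except that of ASNS, the sample in Cy3 read higher on all 8 arrays. Slide and dye orientation cannot be told apart. No probe had a replicate far from the other 3 by Dixon's criterion.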

How the results depend on the processing

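With the replicate number as a block over 8 arrays (correlation 0.834), PSAT1 was called (0.66, adjusted p = 0.0135), and no other of the 10 calls changed. The count of the 10 genes higher in vitro was 1 instead of 2 without background correction and without a filter on dim probes, where ASNS had adjusted p-values of 0.0562 and 0.0770, and it was 1 to 2 when each replicate was left out, ASNS being lost without replicates 1, 2 and 3 (adjusted p = 0.161, 0.0856 and 0.162). With no filter, more genes were tested; for the other losses the cause was not tested, beyond fewer samples where a replicate was left out. On slide 58 (in vitro in Cy5) alone, ASNS was not called (adjusted p = 0.152), CHAC1 made 1 gene lower, and 1491 genes of the whole array were higher instead of 940. Leaving out each replicate gave 282 to 1626 genes higher and 357 to 2063 lower, against 940 and 1285, the highest counts without replicate 2.

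Values that changed sign were small, apart from CHAC1 at 0.59 on slide 61. SHMT2 was -0.10 on slide 58 and SESN2 0.010 on slide 61. DDIT3 was 0.016 where only probes detected in both kinds were used, which replaced its probe. DDIT3 probe 2 was -0.0076 on slide 58 and -0.011 to 0.065 when each replicate was left out. SHMT2 probe 2 was -0.0089 without background correction, -0.00044 with median centring, -0.054 on slide 58 and -0.0048 to 0.012 when each replicate was left out. The cause was not tested. Signal over background limits PHGDH, DDIT3, SESN2 and the in vivo level of PSPH.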
